A study of Mus musculus with 6 samples.

Results

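Chemokines are small secreted proteins that bind receptors on leukocytes and direct their movement. In the lung, alveolar macrophages (AMs), which live in the airspaces, are among the first cells to release chemokines when stimulated, and the transcripts of the inflammatory chemokines are known to be induced through the transcription factor NF-kB and to be short lived. Other chemokines, such as those that attract T cells, are linked to different states of macrophages and dendritic cells. Here, 10 chemokine genes were followed in unstimulated AMs, Ccl2, Ccl3, Ccl4, Ccl6, Ccl9, Ccl17, Cxcl1, Cxcl2, Cxcl3 and Cxcl16. They were chosen by name, and all 10 were found among the 24341 genes of the table of expression values.

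The AMs came from the bronchoalveolar lavage (BAL) of untreated female C57BL/6 mice of 6 to 10 weeks of age. RNA was taken from the BAL cells after lysis of red cells, and the paper describes no sorting of AMs for it. The paper gives the BAL cells of untreated mice as nearly all AMs, and they are called AMs here. CD44+/+ mice are wild type, and CD44-/- mice lack CD44, a surface receptor for the matrix glycan hyaluronan, in all cells and not only in AMs, so a difference in AMs can also come from other CD44-deficient cells of the lung. Each genotype had 3 samples, every one pooled from several mice (4, 2 and 2 animals in the order the methods list them, without naming the replicate numbers), so the error given is the spread between pools. In the comparison of the genotypes, a lower level of a transcript in all cells and fewer cells that express it cannot be told apart.

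Levels are given in FPKM, a fragment count scaled for transcript length and for sequencing depth, and can therefore be compared between genes. A filter kept genes averaging 0.5 FPKM or more across all samples, 10800 in all and 8 of the 10 chemokine genes, and these were compared between the genotypes with limma on the scale log2(FPKM + 0.1). A gene was counted as changed at an adjusted p under 0.05, and log2 fold changes are CD44-/- over CD44+/+. The absolute depth is unknown. Relative to CD44+/+ replicate 1, the depth read from the spacing of the lowest values was between 0.815 and 1.05. Cd44 itself was at 540, 535 and 527 FPKM in CD44+/+ and at 54.7, 54.5 and 51.4 FPKM in CD44-/- AMs, in accordance with the labels. The summed FPKM of the 15 AM markers in the table (Siglecf, Itgax, Marco, Chil3 and others) lay between 36919 and 43341 in the 6 samples, most of it from Lyz2 and Chil3. The sum was lowest in CD44+/+ replicate 1, which was also the lowest sample for 5 of the 15 (Marco, Car4, Fabp4, Cd68 and Lyz2). Fabp4, for example, was at 150 FPKM there and at 220 to 257 FPKM in the other samples, and Marco at 264 FPKM and at 349 to 532 FPKM. Siglecf, Mrc1, Cidec and Pparg were instead highest in CD44+/+ replicate 1. Siglecf was at 268 FPKM there and at 243 to 256 FPKM in the other samples, and Cidec at 269 FPKM and at 200 to 228 FPKM. Markers of other cells were in part present. Of the neutrophil markers, Ngp and Camp were listed at 0 in every sample, but Ltf was at 15.2 to 87.3 FPKM and S100a8 at 17.2 to 45.0 FPKM. Of the monocyte markers, Ly6c2 did not exceed 0.263 FPKM, but Fn1, which AMs can also express, was at 305, 370 and 428 FPKM in CD44+/+ and 221, 288 and 292 FPKM in CD44-/- AMs (log2 fold change -0.46, limma adjusted p = 0.427, and -0.59 with 0.138 without CD44+/+ replicate 1). Fn1 thus did not overlap between the genotypes, where 11.6% of all tested genes did not. Ccr2 and Itgam, the other monocyte markers above the filter, overlapped, with log2 fold changes of 0.18 and 0.14 (limma adjusted p = 0.841 and 0.971). Without CD44+/+ replicate 1 these were 0.20 and -0.13. The part of monocytes in the levels of the chemokine genes was not tested.

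CD44+/+ replicate 1 stood apart from the other samples for many of the chemokine genes, and fold changes are therefore given with and without it. The AM markers above moved in part with it, and their part in the levels of the chemokine genes was not tested. It held the lowest of the 6 values for 6 of the 8 tested chemokine genes (Ccl3, Ccl6, Ccl9, Cxcl2, Cxcl3 and Cxcl16), and for 9.47% of all tested genes. Over all tested genes its mean absolute log2 deviation from the mean of its genotype was 0.121, against 0.0906 to 0.107 in the other samples. This sample was singled out after its values were seen, and as it was low, leaving it out raises the CD44+/+ means of these genes.

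The chemokine genes differed widely in level. Ccl6 was the 12th most abundant of all genes and made up between 97.2% and 98.7% of the summed FPKM of the 10 chemokine genes in every sample. Ccl9 followed at a mean of 20.5 FPKM over the 6 samples. Ccl17, Ccl3, Cxcl3, Cxcl16 and Cxcl2 followed with means between 3.75 and 11.6 FPKM, a range within which the values of neighbouring genes overlapped. Ccl4 was at a mean of 0.691 FPKM. Cxcl1 and Ccl2 were below the limit of 0.5 FPKM and were not tested.

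**Figure D1:**
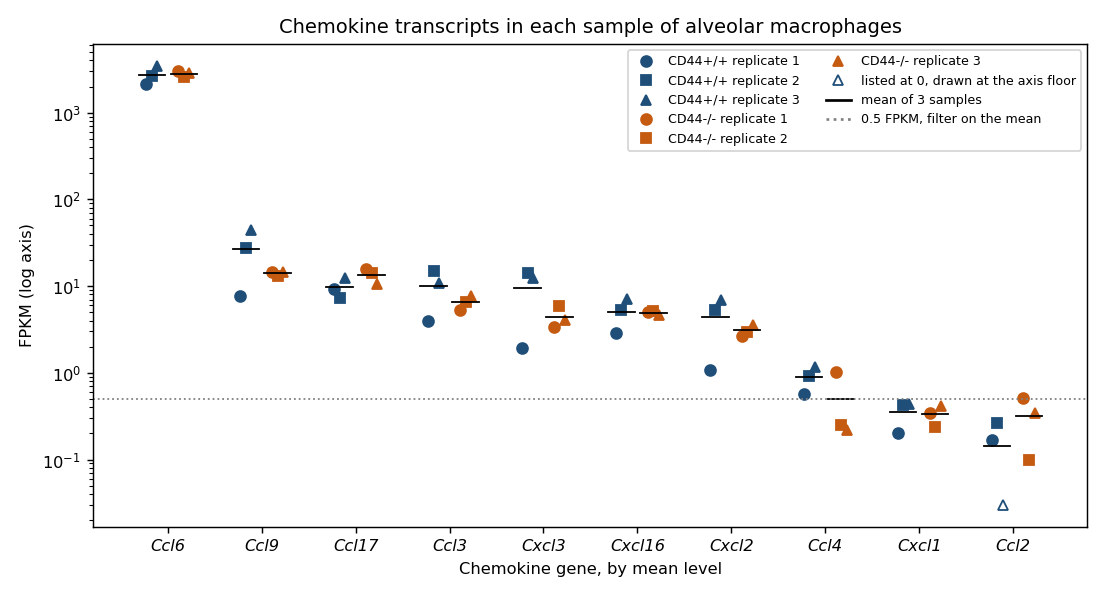
FPKM (log axis) of the 10 chemokine genes in each of the 3 CD44+/+ samples (blue) and 3 CD44-/- samples (orange) of AMs, with the replicate number given by the shape of the point and the mean of 3 samples by a black line. Ccl6 lies far above the other genes, and CD44+/+ replicate 1 (blue circles) is the lowest sample for Ccl6, Ccl9, Ccl3, Cxcl3, Cxcl16, Cxcl2 and Cxcl1.

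None of the 8 tested chemokine genes passed the adjusted threshold between the genotypes over the 6 samples, where 0.111% of all tested genes did (12 genes). One of the 8, Ccl17, had an unadjusted p under 0.05, where 7.69% of all tested genes had, and the genotypes overlapped for every one of the 8, where 11.6% of all tested genes did not overlap. The median log2 fold change of the 8 genes was -0.29, beside 0.01 for all tested genes. Without CD44+/+ replicate 1, Ccl9 and Cxcl3 were lower in CD44-/- AMs at an adjusted p under 0.05 (2 of 8, beside 0.333% of all tested genes). Ccl3 and Cxcl2 joined them at an unadjusted p under 0.05 (4 of 8 lower, beside 3.72% of all tested genes). With Cxcl16, 5 of 8 were then lower in CD44-/- without overlap, beside 8.58% of all tested genes. The median of the 8 genes was then -0.97, beside 0.04 for all tested genes. Leaving out another CD44+/+ sample instead moved it the other way, to 0.0052 without replicate 2 and 0.09 without replicate 3, and none of the 8 genes then passed the adjusted threshold.

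**Figure D2:**
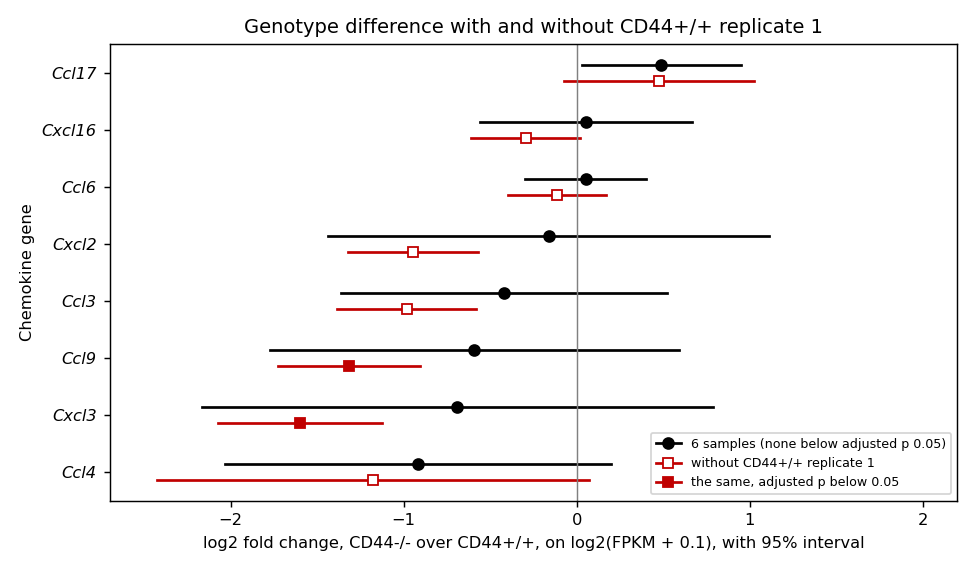
Log2 fold change, CD44-/- over CD44+/+, with its 95% interval from limma for the 8 tested chemokine genes, over all 6 samples (black circles) and without CD44+/+ replicate 1 (red squares, filled where the adjusted p is under 0.05). Over 6 samples, 7 of the 8 intervals include 0, the exception being Ccl17, whereas without CD44+/+ replicate 1 the intervals of Ccl3, Ccl9, Cxcl2 and Cxcl3 lie below 0.

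The CXC chemokines that attract neutrophils through the receptor CXCR2 are encoded in 1 region of mouse chromosome 5 (GRCm38, GENCODE vM21), Cxcl3 at chr5:90786103-90789600, Cxcl1 at chr5:90891241-90893115 and Cxcl2 at chr5:90903871-90905938, all on the plus strand, with 101640 bases between Cxcl3 and Cxcl1 and 10755 bases between Cxcl1 and Cxcl2. The stretch of 120 bases before the RefSeq start site of each gene is shown (GRCm38.p6, plus strand, 5′ to 3′), because Cxcl2 and Cxcl3 were the most variable of the tested chemokine genes in CD44+/+ AMs. Cxcl1, too low to be tested, is shown because it lies in the same region. RefSeq and GENCODE place the start sites differently. The windows of Cxcl1 and Cxcl2 end at 90891244 and 90903898, past the GENCODE starts of 90891241 and 90903871. Their last bases thus lie inside the genes as placed above, and more of them do for Cxcl2. Capitals mark the NF-kB-type motif GGAATTTCC and the TATA-type motif ATAAAAG, which do not overlap.
Cxcl1, chr5:90891125-90891244: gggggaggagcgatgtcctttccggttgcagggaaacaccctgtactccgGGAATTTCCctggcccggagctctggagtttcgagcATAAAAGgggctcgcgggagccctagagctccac
Cxcl2, chr5:90903779-90903898: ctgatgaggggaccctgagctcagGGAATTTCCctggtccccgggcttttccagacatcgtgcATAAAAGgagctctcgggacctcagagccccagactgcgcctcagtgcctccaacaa
Cxcl3, chr5:90785981-90786100: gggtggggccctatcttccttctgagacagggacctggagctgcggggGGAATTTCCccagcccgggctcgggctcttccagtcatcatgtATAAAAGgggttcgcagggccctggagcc

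Both motifs were chosen after these sequences were seen, and were searched on both strands from 250 bases before to 50 bases after each start site. RefSeq promoters were found for 7 of the 10 genes, Ccl2, Ccl4 and Cxcl16 being named only. The NF-kB-type motif was found in 3 of the 7, Cxcl1, Cxcl2 and Cxcl3, and in 0.317% of all promoters of this length (104 of 32851). The TATA-type motif was found in the same 3 genes and in Ccl9, and in 5.42% of all promoters. Counted from the RefSeq start site, the NF-kB-type match lay at -70 to -62 in Cxcl1, at -96 to -88 in Cxcl2 and at -72 to -64 in Cxcl3. In each the TATA-type match lay downstream of it. For Cxcl2 the RefSeq start lies downstream of the GENCODE start, so both of its matches are nearer to the GENCODE start. A match of letters describes the sequence and does not show that a factor binds there.

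**Figure D3:**
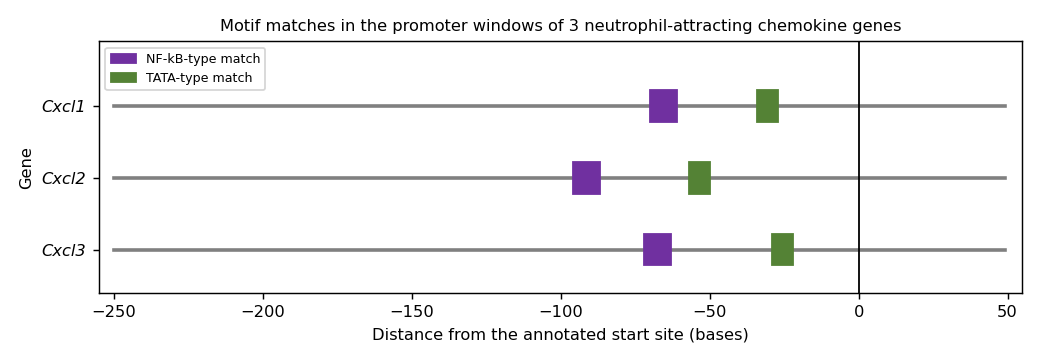
Positions of the NF-kB-type (purple) and TATA-type (green) matches in the promoter windows of Cxcl1, Cxcl2 and Cxcl3, in bases from the RefSeq start site at 0. For Cxcl2 this site lies downstream of the GENCODE start. All 3 genes hold 1 match of each kind, with the TATA-type match nearer to the start site.

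Cxcl3 was at 1.93, 14.3 and 12.4 FPKM in CD44+/+ replicates 1, 2 and 3, and at 3.40, 5.86 and 4.07 FPKM in CD44-/- AMs. CD44+/+ replicate 1 lay below and the other CD44+/+ samples above all 3 CD44-/- samples, and the mean of those other samples was 6.92-fold that of replicate 1. Over 6 samples the log2 fold change was -0.69 (SE 0.65, n = 3 per genotype, limma adjusted p = 0.925). Without CD44+/+ replicate 1 it was -1.60 (SE 0.20, 95% interval -2.07 to -1.12, limma adjusted p = 0.0353), whereas without replicate 2 or replicate 3 of CD44+/+ it was -0.19 or -0.29.

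Cxcl2 was lower in level, with 1.09, 5.27 and 6.85 FPKM in CD44+/+ and 2.68, 2.99 and 3.60 FPKM in CD44-/- AMs. The CD44-/- samples lay again between CD44+/+ replicate 1 and the other CD44+/+ samples. Its log2 fold change was -0.16 (SE 0.56, limma adjusted p = 0.989), and without CD44+/+ replicate 1 it was -0.95 (SE 0.16, limma adjusted p = 0.0825), which did not pass the threshold. Its direction turned, to 0.14 or 0.33, without replicate 2 or replicate 3 of CD44+/+. Cxcl2 and Cxcl3 share stretches of sequence as long as the reads of 42 bases, which made up 3.71% of the Cxcl2 transcript and 7.08% of that of Cxcl3, so that some of their reads could have been divided between them by the counting.

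Cxcl1 was near the limit of detection, at 0.204, 0.426 and 0.432 FPKM in CD44+/+ and 0.344, 0.239 and 0.416 FPKM in CD44-/- AMs. The genotypes overlapped, and a two-sided exact permutation test gave p = 0.8, where 0.1 is the smallest p that 3 against 3 samples allow.

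Ccl3 and Ccl4 encode the macrophage inflammatory proteins MIP-1alpha and MIP-1beta, which attract monocytes and T cells. They are neighbours on chromosome 11, at chr11:83647844-83649355 (minus strand) and chr11:83662584-83664683 (plus strand), 13228 bases apart. Ccl3 was at 3.92, 15.0 and 10.9 FPKM in CD44+/+ and 5.36, 6.51 and 7.59 FPKM in CD44-/- AMs. As for Cxcl2 and Cxcl3, all CD44-/- samples lay between CD44+/+ replicate 1 and the remaining CD44+/+ samples. The log2 fold change of Ccl3 was -0.42 (SE 0.41, limma adjusted p = 0.933), and without CD44+/+ replicate 1 it was -0.98 (SE 0.17, limma adjusted p = 0.0968). With replicate 2 or replicate 3 of CD44+/+ left out instead, the value for Ccl3 was -0.03 or -0.26.

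Ccl4 did not follow Ccl3. It was at 0.564, 0.907 and 1.18 FPKM in CD44+/+ and 1.02, 0.253 and 0.221 FPKM in CD44-/- AMs, so that the high CD44-/- sample, replicate 1, lay among the CD44+/+ samples and the other CD44-/- samples below them. This gave a log2 fold change of -0.92 (95% interval -2.03 to 0.20, limma adjusted p = 0.758), and of -1.18 without CD44+/+ replicate 1 (limma adjusted p = 0.424). It was -1.50 without CD44-/- replicate 1 (limma adjusted p = 0.169) and -0.59 without CD44-/- replicate 3. At this level a few fragments can move the value. The ratio of Ccl3 to Ccl4 ranged from 5.25 to 34.3 over the 6 samples, both ends being CD44-/- samples.

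Ccl6 and Ccl9 belong to a branch of CC chemokines found in rodents whose products are made by macrophages without stimulation and bind CCR1. Their genes lie 9245 bases apart on the minus strand of chromosome 11, Ccl9 at chr11:83572919-83578636 and Ccl6 at chr11:83587882-83593087. Ccl6 was at 2140, 2640 and 3460 FPKM in CD44+/+ and 2990, 2560 and 2850 FPKM in CD44-/- AMs, or 2747 ± 666 and 2800 ± 219 FPKM (SD, n = 3). Ccl6 had a log2 fold change of 0.05 (95% interval -0.30 to 0.40, limma adjusted p = 0.984), and -0.11 without CD44+/+ replicate 1 (limma adjusted p = 0.752). CD44+/+ held both the lowest and the highest sample.

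Ccl9 was at 7.78, 27.7 and 44.9 FPKM in CD44+/+ and 14.5, 13.2 and 14.7 FPKM in CD44-/- AMs. The CD44-/- samples were close to each other, with a log2 range of 0.15, whereas the CD44+/+ samples had a log2 range of 2.51, which 0.352% of all tested genes reached in CD44+/+. The log2 fold change of Ccl9 was -0.59 (SE 0.52, limma adjusted p = 0.919), and without CD44+/+ replicate 1 it was -1.31 (SE 0.18, 95% interval -1.73 to -0.90, limma adjusted p = 0.0416). Without replicate 2 or replicate 3 of CD44+/+, Ccl9 was instead at -0.41 or -0.06. The ratio of Ccl6 to Ccl9 was 275, 95.3 and 77.1 in CD44+/+ AMs, against 206, 194 and 194 in CD44-/- AMs, so the neighbouring genes varied unequally. Of the Ccl9 transcript, 2.83% is repeat sequence shared with many genes.

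Cxcl3, Cxcl2, Ccl9 and Ccl3 were thus the chemokine genes with the widest spread in CD44+/+ AMs, at log2 ranges of 2.83, 2.55, 2.51 and 1.91. Ranges as wide were found in 0.306%, 0.333%, 0.352% and 0.528% of all tested genes in CD44+/+, respectively. In CD44-/- AMs the ranges of the same genes were 0.77, 0.41, 0.15 and 0.49, which 3.45%, 12.5%, 53.9% and 8.75% of all tested genes reached in CD44-/-. The wide ranges in CD44+/+ came in large part from replicate 1, and the difference in spread between the genotypes was not tested. The correlations between them over the 6 samples, on the log2 scale, were between 0.87 (Ccl3 with Ccl9) and 0.96 (Ccl3 with Cxcl3), as a description of samples that share CD44+/+ replicate 1 as their lowest point.

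Cxcl16 encodes a membrane-bound chemokine that is released by the protease ADAM10 and binds CXCR6 on T cells. It was at 2.88, 5.24 and 7.05 FPKM in CD44+/+ and 5.0, 5.21 and 4.62 FPKM in CD44-/- AMs, with the lowest and the highest sample again in CD44+/+. Cxcl16 had a log2 fold change of 0.06 (95% interval -0.56 to 0.67, limma adjusted p = 0.989), and -0.29 without CD44+/+ replicate 1 (limma adjusted p = 0.425). The gene, at chr11:70453983-70459984 on the minus strand, overlaps Zmynd15 on the opposite strand over 20.7% of its transcript. Zmynd15 was at no more than 0.371 FPKM, and although the library kit kept the strand, the strand setting of the counting is not given in the sources used here.

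Ccl2, which attracts monocytes through CCR2, was at 0.169, 0.261 and 0 FPKM in CD44+/+ and 0.513, 0.0976 and 0.340 FPKM in CD44-/- AMs. The gene (chr11:82035571-82037453) was listed at 0 in CD44+/+ replicate 3, and the remaining values overlapped between the genotypes (two-sided exact permutation test, p = 0.4). A difference was not detectable at this level.

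Ccl17 was the 1 tested chemokine gene whose interval over 6 samples lay above 0. It encodes a ligand of CCR4, made by macrophages and dendritic cells under type 2 cytokines, and lies at chr8:94810453-94812036 on the plus strand. It was at 9.25, 7.30 and 12.4 FPKM in CD44+/+ and 15.9, 14 and 10.5 FPKM in CD44-/- AMs, so the highest CD44+/+ sample lay above the lowest CD44-/- sample. The log2 fold change of Ccl17 was 0.49 (SE 0.20, 95% interval 0.03 to 0.95, limma adjusted p = 0.619), and 0.48 without CD44+/+ replicate 1 (limma adjusted p = 0.452), so it did not pass the test in either. Dendritic cells also express Ccl17, and the summed level of 10 of their markers was 6.73, 4.15 and 8.18 FPKM in CD44+/+ and 11.6, 5.97 and 5.48 FPKM in CD44-/- AMs. It was highest in the sample with the highest Ccl17 and lowest in the sample with the lowest, with Ccr7 as its largest member at 7.01 and 1.59 FPKM there, and its part in the level of Ccl17 was not tested.

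Of 30 other chemokine ligands, 28 were in the table, 11 were tested, none passed the adjusted threshold and 8 were listed at 0 in all samples. At an unadjusted p under 0.05 (7.69% of all tested genes), 2 of the 11 were higher and 1 was lower in CD44-/- AMs. Ccl22, the other ligand of CCR4, was at 13.7, 12.4 and 18.1 FPKM in CD44+/+ and 23.3, 17.8 and 18.0 FPKM in CD44-/- AMs (log2 fold change 0.42, limma adjusted p = 0.524, and 0.38 with 0.420 without CD44+/+ replicate 1). It overlapped between the genotypes, as Ccl17 did. Cxcl14 was at 7.71, 6.85 and 9.19 FPKM in CD44+/+ and 4.70, 4.05 and 6.39 FPKM in CD44-/- AMs (log2 fold change -0.65, limma adjusted p = 0.354, and -0.67 with 0.251 without CD44+/+ replicate 1). Cxcl15, which lung epithelium makes, was at 0.225 to 0.467 FPKM and 0.477 to 2.22 FPKM (log2 fold change 1.20, limma adjusted p = 0.617, and 1.29 with 0.408 without CD44+/+ replicate 1). Without CD44-/- replicate 3, its highest sample, the log2 fold change of Cxcl15 was 0.63 (limma adjusted p = 0.953). In Cxcl14 and Cxcl15, alone among the 11, the genotypes did not overlap, where 11.6% of all tested genes did not. Sftpc, a marker of alveolar type 2 cells, was highest in the same sample as Cxcl15, at 74.2 FPKM in CD44-/- replicate 3 beside 6.83 to 22.8 FPKM in the other samples. The surfactant genes Sftpb and Sftpa1 were also highest there, but Sftpd was not, and the sum of all 13 epithelial markers, most of it from airway genes such as Scgb1a1 and Bpifa1, was lowest there, at 799 FPKM beside 837 to 1366 FPKM in the other samples. The part of epithelial cells in the level of Cxcl15 was not tested. Cx3cl1 at a mean of 26.6 FPKM and Pf4 at 3.12 FPKM had log2 fold changes of 0.02 and 0.44 with limma adjusted p-values of 0.982 and 0.898, and of 0.04 and 0.21 without CD44+/+ replicate 1. None of the 11 ligands passed the adjusted threshold without that sample.

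Of 24 chemokine receptor genes, Ccrl2 and the atypical receptors included, 8 were above the filter and none passed the adjusted threshold. Ccr1, which binds the products of Ccl3, Ccl6 and Ccl9, was at 48.8, 54.2 and 51.1 FPKM in CD44+/+ and 40.5, 43.8 and 45.5 FPKM in CD44-/- AMs. Every CD44-/- sample was below every CD44+/+ sample, by a log2 fold change of -0.25 (limma adjusted p = 0.347), and of -0.28 without CD44+/+ replicate 1 (limma adjusted p = 0.154). Ccr1 was the 1 receptor of 8 without overlap, beside 11.6% of all tested genes. It was also the 1 receptor of 8 with an unadjusted p under 0.05, beside 7.69% of all tested genes. Cxcr4, the most abundant, was at a mean of 87.2 FPKM with a log2 fold change of 0.39 (limma adjusted p = 0.774, and 0.52 with 0.405 without CD44+/+ replicate 1). Cxcr1, at a mean of 23.4 FPKM, had a log2 fold change of 0.32 (limma adjusted p = 0.841, and 0.25 with 0.714 without that sample).

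Of 22 genes that control chemokine transcripts or process their products, 21 were tested and none passed over the 6 samples. The 4 most abundant, Zfp36l2, Il1rn, Stat6 and Adam10, had log2 fold changes between -0.06 and 0.06, and between -0.06 and 0.18 without CD44+/+ replicate 1. The inflammatory cytokine Tnf was the 1 gene of the 21 with an unadjusted p under 0.05, where 7.69% of all tested genes had such a p. It was at 4.16, 12.0 and 8.20 FPKM in CD44+/+ and 3.48, 4.93 and 4.42 FPKM in CD44-/- AMs (log2 fold change -0.80, limma adjusted p = 0.616). Without CD44+/+ replicate 1 the log2 fold change of Tnf was -1.21 (limma adjusted p = 0.0672), and without CD44+/+ replicate 2 it was -0.46 (limma adjusted p = 1). CD44+/+ replicate 1 was the lowest sample for 7 of the 21, a share to be read beside the 9.47% of all tested genes. Those were Nfkb2, Relb, Nfkbia, Nfkbib, Nfkbie, Tnfaip3 and Adam17, and of these Nfkbia, Nfkbie and Tnfaip3 encode inhibitors of NF-kB that NF-kB itself induces.

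Nfkbia was at 41.5, 65.6 and 69.3 FPKM in CD44+/+ and 49.2, 50.6 and 53.4 FPKM in CD44-/- AMs, with a log2 fold change over 6 samples of -0.17 (limma adjusted p = 0.935). Without CD44+/+ replicate 1 it was lower in CD44-/- AMs by a log2 fold change of -0.40 (limma adjusted p = 0.0483), the 1 gene of the list that then passed. Another 5 of the list then had an unadjusted p under 0.05 and a negative log2 fold change, beside 3.72% of all tested genes, and 10 of the 21 were lower without overlap, beside 8.58%. In Nfkb2, Relb, Nfkbia, Nfkbib, Nfkbie and Tnfaip3, as in Cxcl2, Cxcl3, Ccl3 and Ccl9, all CD44-/- samples lay between CD44+/+ replicate 1 and the other CD44+/+ samples. The remaining tested genes of the list, Nfkb1, Rela, Rel, Tnf and Il1b among them, did not show this pattern. The share of all tested genes that show it was not counted. Nfkbia, Nfkbie, Ccrl2, Il1b and S100a9, shown with Tnf beside the chemokine genes, were picked after their values were seen.

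**Figure D4:**
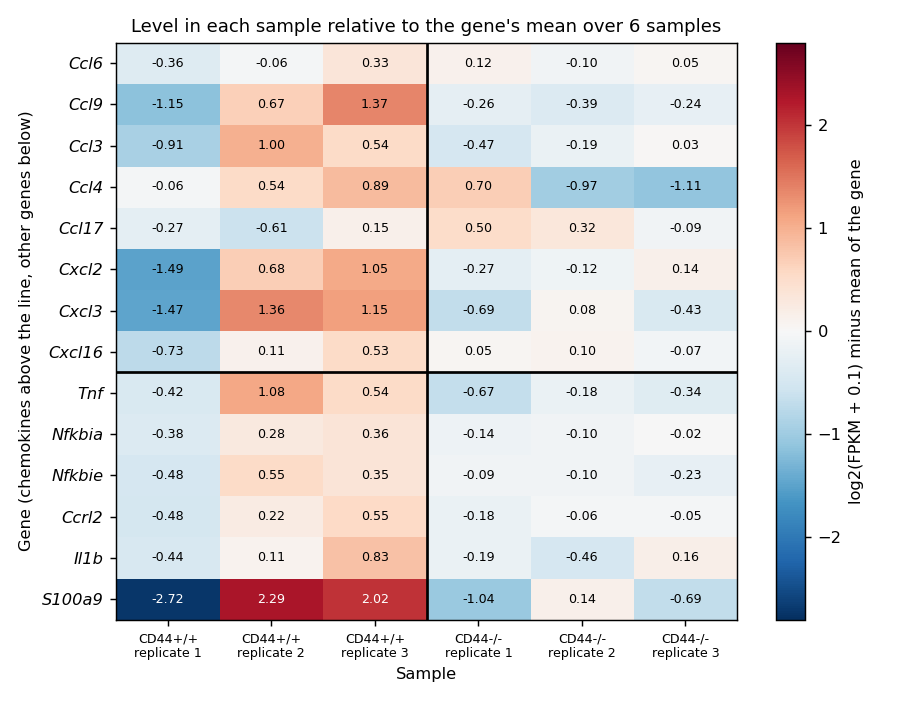
Level of the 8 tested chemokine genes (above the line) and of 6 other genes (below) in each sample, as log2(FPKM + 0.1) minus the mean of the gene over the 6 samples, in colour and in numbers. CD44+/+ replicate 1 is at -1.49 for Cxcl2 and -1.47 for Cxcl3, and replicates 2 and 3 of CD44+/+ are above 0 for both, whereas Ccl6 stays within 0.36 of its mean and Ccl17 has its lowest value in CD44+/+ replicate 2.

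Genes whose levels followed 7 of the chemokine genes most closely over the 6 samples, among those with a mean of at least 5 FPKM, are given with Pearson's r on the log2 scale as a description. All such values share the same 6 samples, and for Cxcl2, Cxcl3, Ccl9, Cxcl16 and Ccl6 the lowest point is CD44+/+ replicate 1. Cxcl3 was followed by S100a9 (r = 0.998), Icam1 (0.993) and Hvcn1 (0.989). Cxcl2 was followed by Tnfaip3 (0.981), and Ccl9 by Clec4d (0.990), Nr4a1 (0.984) and Ccrl2 (0.984). Cxcl16 was followed by the complement gene C3 (0.995), Ccl6 by Fth1, the ferritin heavy chain (0.998), Ccl4 by Hrsp12 (0.981) and Ccl17 by Tmem86a (0.988).

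S100a9, which neutrophils and stimulated macrophages express, was at 0.493, 18.9 and 15.8 FPKM in CD44+/+ and 1.80, 4.20 and 2.31 FPKM in CD44-/- AMs. Over 6 samples S100a9 had a log2 fold change of -1.06 (95% interval -3.67 to 1.55, limma adjusted p = 0.944) and passed the threshold when CD44+/+ replicate 1 was left out, at -2.69 (limma adjusted p = 0.0206). Since it is also a neutrophil marker, the 10 markers of that list are given beside the chemokine genes. Of the 9 in the table, Ngp and Camp were listed at 0 in all samples, and the summed level was 91.3, 189 and 125 FPKM in CD44+/+ and 97.8, 114 and 100.1 FPKM in CD44-/- AMs. The sum was lowest in CD44+/+ replicate 1 and highest in CD44+/+ replicate 2, as for Ccl3 and Cxcl3. The list did not move as one. S100a8, at 17.2, 45.0 and 35.1 FPKM in CD44+/+ and 26.5, 28.6 and 30.2 FPKM in CD44-/- AMs, was like S100a9 lowest in CD44+/+ replicate 1, whereas Csf3r and Mmp8 were lowest in CD44+/+ replicate 3, at 9.32 and 22.3 FPKM. Without CD44+/+ replicate 1, 4 of the 7 tested markers (S100a8, S100a9, Retnlg and Ltf) were lower in CD44-/- AMs at an unadjusted p under 0.05 and without overlap, beside 3.72% and 8.58% of all tested genes. The other 3 (Csf3r, Mmp8 and Cxcr2) were higher at that p and without overlap, beside 8.81% and 21.7%. The part of neutrophils in the levels of the chemokine genes was not tested.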

How the data were processed

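RNA from 6 AM samples was sequenced by the authors as paired-end reads of 42 bases, aligned to mm10 with STAR, and the authors deposited FPKM values per gene from Cufflinks. FPKM is already relative to depth and transcript length, depends on each gene model and does not keep read counts, so count models were not used, absolute depth is unknown and no counting intervals are given. The columns of the authors' own Cuffdiff comparison and group values were not used. Groups and replicate numbers came from the labels of the samples. 1 gene with a missing value was left out.

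The 10800 genes averaging 0.5 FPKM or more were fitted together in R 4.3.3 with limma 3.58.1 (trended eBayes, two-sided tests) on log2(FPKM + 0.1), and p-values were adjusted over all of them after Benjamini and Hochberg. The pseudocount understates changes of low genes. The procedure was tested on simulated data. Exact permutation tests were used for single untested genes. The chemokine genes and all lists were chosen with earlier results of these data known. Named genes were the 10 chemokine genes, Cd44, genes of the other lists with an unadjusted p under 0.05 or among the 4 most abundant, and the most similar genes by Pearson's r. A few of these genes are not reported here. Other genes named were chosen after their values were seen. Same-numbered samples deviated together (correlations of 0.212, 0.132 and 0.211 over all tested genes), from the replicate numbers of the labels, so the replicate number was also fitted as a block. Positions came from GENCODE vM21 and promoter sequences from RefSeq (GRCm38.p6). Shared sequence was the share of 42-base runs of a gene's transcripts found in transcripts of other genes. Alternatives changed the pseudocount (1 or 0.01), the filter (none, or 1 FPKM), the scaling (median ratio or quantiles), the trend, the block, or the samples, each of which was left out once.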

Additional observations from a re-analysis of the deposited data

How the results depend on the processing

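No chemokine gene passed the adjusted threshold under any pseudocount, filter, scaling, variance model or replicate block tried, and with the replicate block the limma adjusted p-values of the 8 tested genes lay between 0.547 (Ccl17) and 0.968 (Cxcl16). The block changed no call of the chemokine genes or of the lists. Leaving out each sample in turn changed more. The number of chemokine genes that passed ranged from 0 to 2, the 2 being Ccl9 and Cxcl3 without CD44+/+ replicate 1, and the number lower in CD44-/- without overlap from 0 to 5. The number of control genes that passed ranged from 0 to 1, and that of all genes from 6 to 36, the main count being 12. All genes came to 36 without CD44+/+ replicate 1, 22 without CD44-/- replicate 1, 7 without CD44+/+ replicate 2 and 6 without CD44-/- replicate 2. Log2 fold changes that turned over when 1 sample was left out ranged from -0.11 to 0.23 for Ccl6, from -0.95 to 0.33 for Cxcl2, from -0.29 to 0.34 for Cxcl16, from -0.0084 to 0.044 for Cx3cl1, from -0.062 to 0.18 for Zfp36l2 and from -0.076 to 0.00052 for Adam10. Those of Ccl4 (-1.50 to -0.36, the latter at a pseudocount of 1), Ccl9 (-1.31 to -0.06), Cxcl3 (-1.60 to -0.19) and Ccl3 (-0.98 to -0.03) stayed negative and that of Ccl17 (0.31 to 0.68) positive under all alternatives. The median of the 8 chemokine genes ranged from -0.97 to 0.09. Among other named genes, Tnf ranged from -1.21 to -0.46, Cxcl15 from 0.57 to 1.63, Pf4 from 0.21 to 0.82, Cxcr4 from 0.18 to 0.61 and Cxcr1 from 0.14 to 0.54. Ccl4 and Cxcl15 have no value at a mean of at least 1 FPKM. The cause of the low values in CD44+/+ replicate 1 was not tested, and with 3 pools per genotype the levels of Ccl2, Cxcl1 and Ccl4 are too low for small differences to be detected.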
